A study of Mus musculus with 4 samples.

Results

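Glucose enters a cell through facilitative transporters of the Slc2a family and is converted to pyruvate by the enzymes of glycolysis. Lactate dehydrogenase can then turn pyruvate into lactate. Proliferating T lineage cells are known for a high rate of glycolysis, and small resting double positive (DP) thymocytes, the stage that carries both CD4 and CD8, for a low one. The genes described here are 10 of the 24984 in the deposited count table, chosen by name: the transporter genes Slc2a1 and Slc2a3, the hexokinase genes Hk1 and Hk2, and Gpi1, Pfkl, Aldoa, Eno1, Pkm and Ldha, which encode enzymes of later steps.

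The measurement was TTchem-seq, in which cells briefly take up 4-thiouridine and the RNA that carries it is captured and sequenced. Signal over exons and introns of a gene then follows its transcriptional output rather than its store of mRNA. The extract protocol in the labels instead describes capture of polyA RNA, which would weight the values towards finished mRNA, and the account in the methods, with depletion of ribosomal RNA, was followed here. DP thymocytes came from wild-type (WT) mice, with the label genotype Tox4;F/F, and from conditional knockout (cKO) mice, with the label genotype Tox4;F/F;Lck+, with 2 libraries each. Both groups carried floxed Tox4 alleles, and the cKO mice also carried Cre under the proximal Lck promoter, which is active from the double negative stage on, so that the deletion precedes the DP stage. Per the methods, mice were 6 to 8 weeks old, on a C57BL/6 background and littermates of matched sex, and cells spent 0.5 h in fresh medium before the pulse, so the values describe cells outside the thymus. The labels do not tie libraries to mice, the study describes its genomic replicates as biological, and p-values measure the spread between the 2 libraries of a genotype.

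The libraries held 38429786 to 48690591 fragments, and 11625 genes reached 1 CPM (fragments of a gene scaled to a common library total) on average. Of the genes that define DP cells, Cd4 was at 621 to 715 CPM, Cd8a at 383 to 629 CPM and Rag1 at 802 to 1169 CPM, against a summed CPM of at most 6.04 for 5 B cell genes, 12.0 for 6 myeloid genes, 0.729 for 6 erythroid genes and 1.19 for 5 thymic epithelial genes. Neighbouring T cell stages were nearer: 7 genes of mature single positive cells summed to 495 to 567 CPM, of which Ccr7 was at 181 to 255 CPM, and 4 genes of double negative cells to 57.3 to 63.8 CPM, against 3059 to 3881 CPM for 8 genes of DP cells. How the DP cells were purified for this assay is not given in the sources used here. WT replicate 1 stood apart. It held Xist, the RNA of the inactive X chromosome, at 172 CPM against 0 to 2.36 CPM in the other 3 libraries, although the methods describe mice of matched sex, and it was the lowest library for all 12 of 12 genes of a cycling cell list, whose summed CPM was 359 and 591 in WT but 686 and 567 in cKO. Results are therefore also given without this library. Some markers of T cell stages moved with genotype: DESeq2 called Il7r (0.36 on the log2 scale) and Runx3 (0.42), markers of mature single positive cells, as increased, and Ccr7 (-0.34), another of them, as well as Cd8a (-0.54) and Rag1 (-0.31) as decreased. The edgeR test and limma voom called none of these 5 genes. For Rag1 the adjusted p-value was 0.0499 with DESeq2, 0.291 with edgeR and 0.289 with limma voom, and the log2 fold change was -0.49 without WT replicate 1 but -0.12 without WT replicate 2. For Cd8a, with 0.108 in edgeR and 0.0998 in limma voom, it was -0.71 and -0.35 in these fits. Their part in the values below was not tested. In such bulk samples, fewer cells of a type and less RNA per cell cannot be told apart.

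Tox4, the deleted gene (GRCm38 chromosome 14, 52279146 to 52295509, plus strand), was measured at 74.04 and 70.3 CPM in WT and at 59.3 and 57.2 CPM in cKO. Both cKO libraries were below both WT libraries. On the log2 scale cKO minus WT was -0.31 (SE 0.0998, adjusted p = 0.0453 with DESeq2). The call was lost with edgeR (adjusted p = 0.153), with limma voom (0.143), with total count factors (0.0511), without independent filtering (0.0821), with the replicate block in DESeq2 (0.361) and with any 1 library left out (0.196 to 0.792). The deposited value is 1 number for the whole gene, whereas the loxP sites flank exons 4 to 6 (52285660 to 52287531), so that it does not measure the loss of those exons.

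Of the 10 glucose uptake and glycolysis genes, 1 differed between genotypes at the criteria used, namely Pfkl, which encodes the liver type subunit of phosphofructokinase and was decreased by 20.9% in cKO. A call required an adjusted p under 0.05 with DESeq2 over all genes, a change of 1.2-fold or more and 1 CPM or more on average, a level that all 10 genes reached. At the same criteria 3.71% of the 11625 genes were called, 1.57% as decreased and 2.14% as increased. The edgeR quasi-likelihood test, which called 0.086% of all genes as decreased and 0.413% as increased, called 0 of the 10 genes. So did limma voom, with 0.0946% and 0.43% of all genes called as decreased and increased. DESeq2, edgeR and limma voom each gave an unadjusted p-value under 0.05 for 4 of the 10 genes. The share over all genes, in either direction, was 13.5% with DESeq2, 15.6% with edgeR and 15.8% with limma voom.

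Most estimates lay below 0. Values were lower in cKO for 8 of the 10 genes, against 49.8% of the 11625 genes. Their median on the log2 scale was -0.20, against 0.00 over the 11625. Both cKO libraries lay below both WT libraries for 6 genes (Slc2a1, Slc2a3, Gpi1, Pfkl, Aldoa and Pkm) and above them for 0 genes, against 24.0% and 24.9% of all genes. An unadjusted p-value under 0.05 with a lower value in cKO was found for 4 genes (Slc2a1, Gpi1, Pfkl and Pkm), against 6.31% of all genes. These shares describe a list of 10 genes and were not tested.

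The median did not rest on WT replicate 1, although the value of Slc2a3 did. Without this library, 10 of the 10 log2 fold changes were below 0, their median was -0.20 and both cKO libraries were below the remaining WT library for 8 genes. Pfkl was then the lowest, at -0.37, followed by Aldoa at -0.31, Eno1 and Pkm at -0.27, Gpi1 and Slc2a1 at -0.20, Hk2 at -0.18, Ldha at -0.09, Slc2a3 at -0.08 and Hk1 at -0.06. The other libraries moved some of these values towards 0. Without WT replicate 2 the median was -0.13, with 8 genes lower, and Eno1 was at -0.0048, Aldoa at -0.12 and Pkm at -0.15. The median was closest to 0 without cKO replicate 2, at -0.12, with 8 genes lower, and Eno1 was then at -0.04, Aldoa at -0.10 and Pkm at -0.15. The summed CPM of the 10 genes was 760 and 789 in WT but 728 and 666 in cKO, so that the gap between the nearest libraries of the 2 genotypes was no larger than the spread within cKO.

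**Figure D1:**
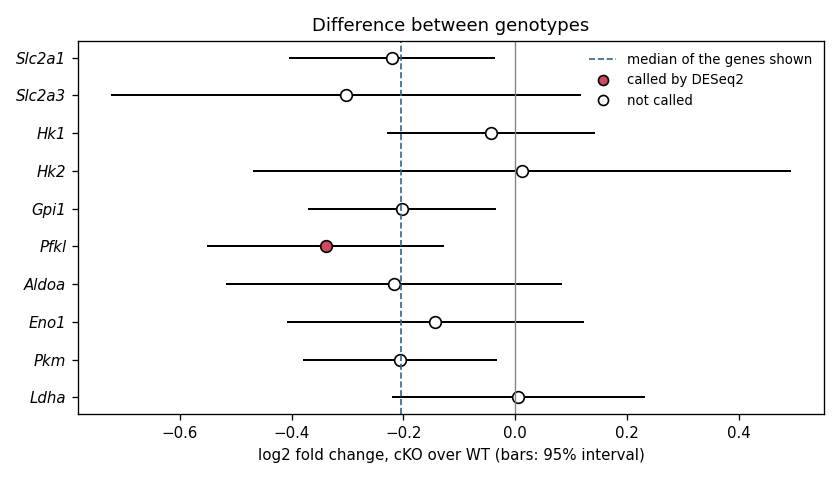
The log2 fold change of cKO over WT from DESeq2 (horizontal axis) is drawn for each of the 10 genes (vertical axis), with bars for the 95% interval of the single gene and a dashed line at their median of -0.20. Pfkl is the filled point, and the intervals of Slc2a1, Gpi1, Pfkl and Pkm lie below 0.

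The promoters of 3 genes are shown because they set the called member beside the pair of lactate dehydrogenase genes, of which Ldhb was called and Ldha was not. Each window is 300 bases of GRCm38.p6 sequence from RefSeq, from 250 bases before to 50 bases after the start site, read 5′ to 3′ along the gene. Windows were found for 9 of the 10 genes, 16 windows in all, with none for Slc2a3. Capitals mark matches, on either strand, to CACGTG, the E-box that MYC with MAX can bind, and to ACGTG or GCGTG, the cores that hypoxia inducible factors can bind. CACGTG contains ACGTG on both strands, and a match on the other strand is printed as CACGT or CACGC. Ldha is at chr7:46845554-46845853 (plus strand), Pfkl at chr10:78009758-78010057 (minus strand) and Ldhb at chr6:142507908-142508207 (minus strand).
Ldha: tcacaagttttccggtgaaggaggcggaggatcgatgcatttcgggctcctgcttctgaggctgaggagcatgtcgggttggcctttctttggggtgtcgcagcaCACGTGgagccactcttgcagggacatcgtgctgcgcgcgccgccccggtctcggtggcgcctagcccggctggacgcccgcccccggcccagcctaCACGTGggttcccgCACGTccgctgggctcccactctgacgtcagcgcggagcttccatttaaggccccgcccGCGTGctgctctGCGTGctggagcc
Pfkl: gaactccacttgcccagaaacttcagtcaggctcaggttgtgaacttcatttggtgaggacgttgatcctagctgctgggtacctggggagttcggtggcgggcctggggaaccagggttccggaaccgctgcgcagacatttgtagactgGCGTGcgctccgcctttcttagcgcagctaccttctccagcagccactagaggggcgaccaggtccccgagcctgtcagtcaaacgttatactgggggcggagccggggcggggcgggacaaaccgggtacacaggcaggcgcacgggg
Ldhb: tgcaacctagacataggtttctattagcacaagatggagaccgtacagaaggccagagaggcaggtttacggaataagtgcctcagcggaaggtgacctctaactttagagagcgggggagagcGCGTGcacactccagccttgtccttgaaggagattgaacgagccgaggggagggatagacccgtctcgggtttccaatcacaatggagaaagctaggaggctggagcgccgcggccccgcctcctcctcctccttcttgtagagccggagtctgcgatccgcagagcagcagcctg

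The Ldha window held 2 copies of CACGTG, which began 145 and 48 bases upstream of the start site. It was the only one of the 16 windows with that hexamer, which was found in 7.15% of the 32851 mouse windows, with 2 or more copies in 0.594%. The Pfkl window held GCGTG 99 bases upstream, and the Ldhb window held it 126 bases upstream. Either core was found in 12 of the 16 windows of these genes, in at least 1 window of 8 of the 9 genes with a window, against 43.8% of all windows, and windows of 1 gene can overlap. The windows of these genes were also richer in CG dinucleotides than all windows, with a median of 22 against 7, and in G and C bases, with a median of 64.2% against 52.7%, and both cores contain CG. These matches describe letters in the windows and not binding.

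Of the transporters, Slc2a1 (chromosome 4, 119108745 to 119137329), which encodes the widespread glucose transporter GLUT1, was measured at 89.9 and 86.3 CPM in WT and at 76.8 and 74.6 CPM in cKO. Both cKO libraries were below both WT libraries, with a gap larger than the spread within either genotype. The difference was -14.2% (95% interval -24.4% to -2.60%), or -0.22 on the log2 scale (SE 0.0931, adjusted p = 0.201 with DESeq2), so that it did not pass the test over all genes. Slc2a3 (chromosome 6, 122727809 to 122742745), which encodes the high affinity transporter GLUT3, was measured at 14.2 and 10.6 CPM in WT and at 9.63 and 10.5 CPM in cKO. WT replicate 1 was high for this gene, and the other 3 libraries were close to each other. Its log2 fold change was -0.30 (SE 0.214, adjusted p = 0.586 with DESeq2), and it was -0.08 without WT replicate 1.

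The hexokinases trap glucose in the cell by phosphorylation. Hk1 (chromosome 10, 62268855 to 62379908) was measured at 164 and 165 CPM in WT and at 173 and 146 CPM in cKO. The cKO libraries lay on both sides of the WT libraries. Its log2 fold change was -0.04 (SE 0.0944), and a change between -14.6% and 10.4% was within its 95% interval. An RNA gene on the other strand, Hk1os, overlaps Hk1 and took 143 to 194 fragments per library, against 5818 to 8032 for Hk1. Hk2 (chromosome 6, 82725027 to 82774454), the form induced in many growing cells, was measured at 6.57 and 8.67 CPM in WT and at 7.57 and 7.85 CPM in cKO. Its cKO values fell between the 2 WT values. With 280 to 422 fragments per library, its 95% interval reached from -27.6% to 40.6%, so that a change within these bounds could not be told from none.

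Gpi1 (chromosome 7, 34201327 to 34230336) encodes glucose-6-phosphate isomerase, the enzyme after hexokinase. It was measured at 129.6 and 128.4 CPM in WT and at 111 and 114 CPM in cKO. The WT libraries were close to each other and both were above both cKO libraries. The difference was -0.20 on the log2 scale (SE 0.0849, adjusted p = 0.196 with DESeq2).

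Pfkl (chromosome 10, 77986949 to 78009807) takes part in the committed step of glycolysis, the phosphorylation of fructose 6-phosphate. It was measured at 56.1 and 57.9 CPM in WT and at 46.1 and 44.3 CPM in cKO. The gap between the genotypes was several times the difference between the libraries of either of them. Mean output in WT was 57.01 ± 1.26 CPM (SD, n = 2), and mean output in cKO was 45.2 ± 1.29 CPM (SD, n = 2). This was a log2 fold change of -0.34 (SE 0.107, adjusted p = 0.0406 with DESeq2), and the 95% interval of the change was -31.6% to -8.52%. The size did not depend on 1 library, since the log2 fold change stayed between -0.37 and -0.31 when each was left out in turn. The call did depend on the test: the adjusted p-value was 0.153 with edgeR and 0.140 with limma voom, and it was 0.361 to 0.775 in the 4 fits with 1 library left out. Without WT replicate 1 it was 0.361.

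Aldoa (chromosome 7, 126795234 to 126800447) encodes the aldolase that splits fructose 1,6-bisphosphate. It was measured at 24.5 and 27.6 CPM in WT and at 24.5 and 20.5 CPM in cKO. The first WT and the first cKO library were almost equal, and only by this margin did the genotypes not overlap. Aldoa thus had a log2 fold change of -0.22 (SE 0.153, adjusted p = 0.586 with DESeq2). Eno1 (chromosome 4, 150237197 to 150248873), which encodes the ubiquitous enolase, was measured at 39.8 and 47.3 CPM in WT and at 42.7 and 36.4 CPM in cKO. The genotypes overlapped, and the log2 fold change was -0.14 (SE 0.134).

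Pkm (chromosome 9, 59656368 to 59679375) encodes the muscle type pyruvate kinase, which makes pyruvate and ATP. It was measured at 168 and 181 CPM in WT and at 158 and 145 CPM in cKO. Both cKO libraries were below both WT libraries, but the spread within each genotype was larger than the gap between them. On the log2 scale the difference was -0.21 (SE 0.0875, adjusted p = 0.205 with DESeq2). The count is 1 value for the gene and does not separate its alternatively spliced forms. Ldha (chromosome 7, 46845804 to 46855627), which encodes the lactate dehydrogenase subunit prevalent in muscle, was measured at 68.0 and 76.5 CPM in WT and at 78.9 and 66.6 CPM in cKO. The genotypes overlapped throughout. Its log2 fold change was 0.01 (SE 0.114), with a 95% interval of -14.0% to 17.3%.

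**Figure D2:**
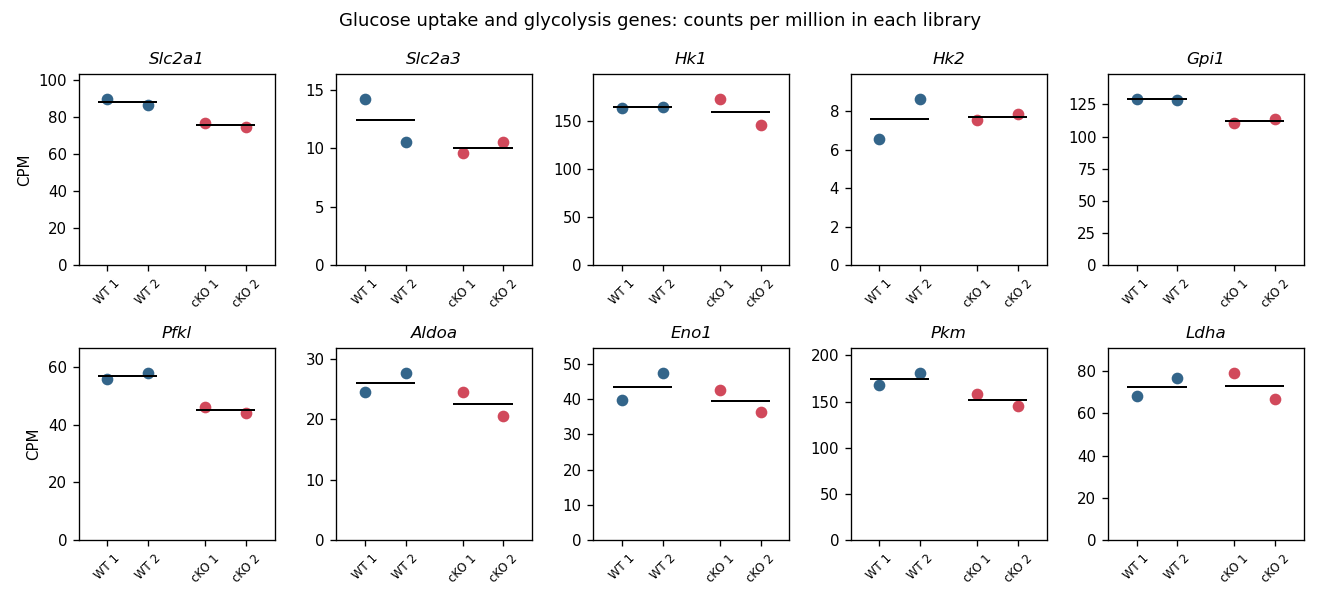
Each panel shows 1 gene, with CPM on the vertical axis from 0, a point for each of the 4 libraries (WT blue, cKO red) and a black line at the mean of each genotype. The cKO points of Slc2a1, Gpi1 and Pfkl sit together below the WT points, whereas those of Hk1, Hk2, Eno1 and Ldha overlap with them.

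Levels were compared between genes as CPM per kb of the deposited gene length, which spans introns and was 5214 to 111054 bp for these genes. Ldha had the highest level, with a mean of 7.38 CPM per kb over the 4 libraries, followed by Pkm at 7.08, Aldoa at 4.66, Gpi1 at 4.16, Eno1 at 3.56, Slc2a1 at 2.86, Pfkl at 2.24, Hk1 at 1.46, Slc2a3 at 0.752 and Hk2 at 0.155 CPM per kb. The highest level was thus 47.6 times the lowest. Per kb of this length, the first rank turned with genotype. Pkm was above Ldha in both WT libraries (means of 7.57 and 7.35 CPM per kb), and Ldha was above Pkm in both cKO libraries (7.40 and 6.58 CPM per kb). The pair was close in WT replicate 2, with Pkm at 7.85 and Ldha at 7.79 CPM per kb. The other neighbours kept their order within each of the 4 libraries. The ranges over the 4 libraries overlapped between Aldoa and Gpi1, which were almost equal in cKO replicate 2, between Gpi1 and Eno1 and between Eno1 and Slc2a1, as well as between Ldha and Pkm. Among the 11625 genes, Ldha was at percentile 91.6 of CPM per kb and Pkm at percentile 91.04, while Hk1 was at percentile 50.05 and Hk2 at percentile 11.6.

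This order depends on the length used, and the turn of its first rank was seen with the deposited length only. The sources do not settle whether introns were counted. Per kb of merged exons, Pkm came first and 2 of the 10 genes kept their rank. Per kb of the shortest listed transcript, 8 kept it, and Hk1, whose transcripts span 71567 and 111054 bp, changed places with Pfkl. Few fragments were assigned to near copies of Eno1 and Aldoa: Eno1b held at most 2 fragments in a library, and the Aldoa copies Aldoart1 and Aldoart2 held 0. Copies of the other genes were not examined, and whether fragments of copies were assigned to these genes was not tested.

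**Figure D3:**
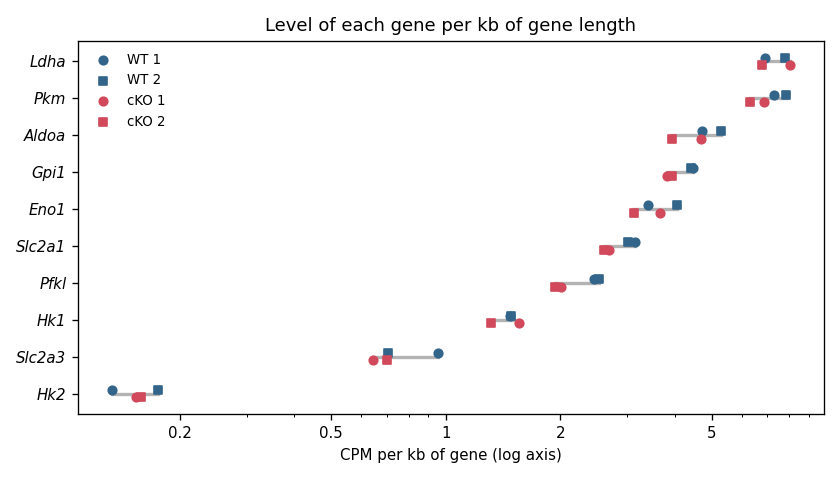
The level of each gene in CPM per kb of gene length (horizontal log axis) is drawn for the 4 libraries, with WT in blue, cKO in red, circles for replicate 1, squares for replicate 2 and a grey line over their range. Ldha and Pkm overlap at the top, and Slc2a3 and Hk2 stand apart at the bottom.

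Except for Gpi1, for which no relatives were listed, each of these genes belongs to a family of related enzymes or transporters, and each gene was given as a share of its family's summed CPM per kb of the deposited length. Hk1 took 85.4% to 88.5% of the hexokinase output and Hk2 7.98% to 10.4%. Aldoa took 96.9% to 99.2% of the aldolase output, and Pkm 99.9% to 100% of the pyruvate kinase output. Phosphofructokinase output was divided among 3 genes. Pfkl took 46.2% and 46.9% in WT and 43.0% and 44.3% in cKO, Pfkp, the platelet type, took 45.1% to 47.7%, and Pfkm, the muscle type, 7.26% to 9.65%. Pfkp itself had a log2 fold change of -0.20 (SE 0.0872, adjusted p-value 0.215 with DESeq2), and Pfkm one of -0.00 (SE 0.168). The division between Pfkl and Pfkp depended on the length used, since per kb of merged exons Pfkp took 66.7% to 68.5% and Pfkl 21.04% to 23.7%.

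Among the transporters, Slc2a1 took 57.1% to 60.6% of the family output, Slc2a8, an intracellular transporter, 14.8% to 18.4%, Slc2a3 13.7% to 17.3%, and Slc2a9, known as a urate transporter, 6.51% to 7.10%. Slc2a8 and Slc2a9 had both cKO libraries below both WT libraries, with log2 fold changes of -0.48 (SE 0.235) and -0.28 (SE 0.111), and neither passed the test. Per kb of merged exons Slc2a1 stayed first, with 60.7% to 62.8%, but Slc2a9 came next, with 24.3% to 25.97%, and Slc2a3 took 4.83% to 6.28%.

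The share of Eno1 was 85.6% and 88.1% in WT and 78.6% and 77.9% in cKO. The difference went with Eno3, the muscle enolase, at 2.16 and 1.91 CPM in WT and 4.35 and 4.05 CPM in cKO. Both cKO libraries were above both WT libraries for Eno3, with a log2 fold change of 1.04 (SE 0.354), but its adjusted p with DESeq2 was 0.0675.

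The 2 lactate dehydrogenase genes differed in their estimates. Ldhb, the form prevalent in heart, was measured at 79.01 and 83.3 CPM in WT and at 61.2 and 61.1 CPM in cKO. The genotypes were well apart, and output of Ldhb was decreased by 24.8% (-0.41 on the log2 scale, SE 0.098, adjusted p = 0.00175 with DESeq2), whereas the libraries of Ldha overlapped. The share of Ldha was 60.8% and 62.3% in WT and 69.8% and 66.2% in cKO, and its level per kb was 1.55 and 1.66 times that of Ldhb in WT and 2.32 and 1.96 times in cKO. Per kb of merged exons Ldhb was instead the higher of the pair, and Ldha took 36.7% to 46.4%. The exact permutation test of this ratio gave a two-sided p-value of 0.333, which is the smallest that 2 against 2 libraries allow, and 0.667 after adjustment over the 4 ratios computed. With this number of libraries the test could not pass the threshold, so it says nothing for or against a difference between the 2 genes.

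**Figure D4:**
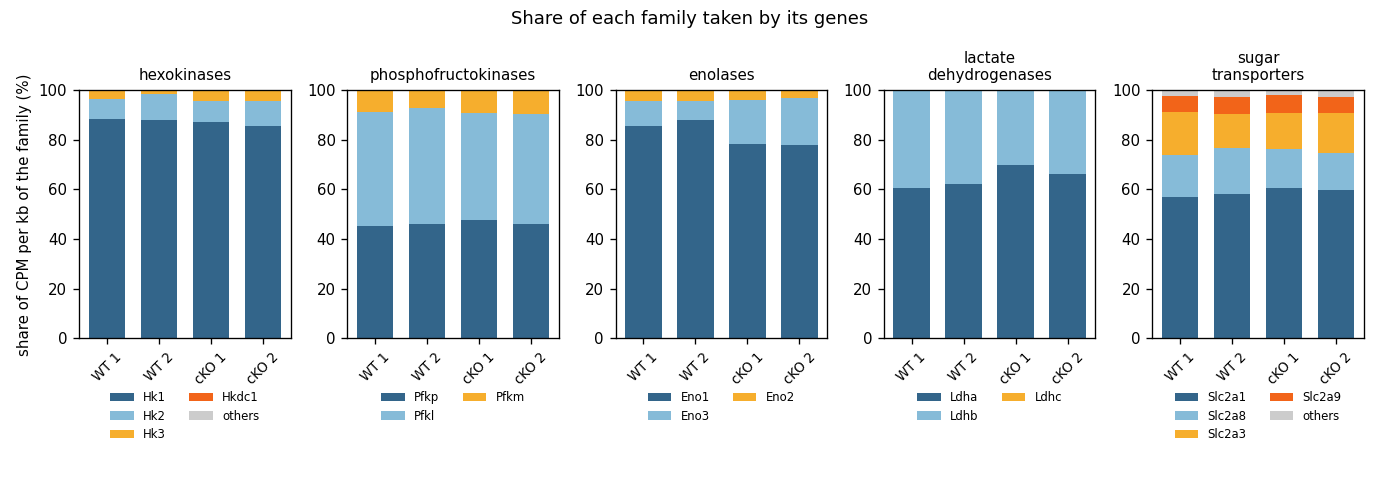
Stacked bars give the share (%) of the summed CPM per kb of deposited gene length of 5 gene families taken by each gene in each of the 4 libraries. Eno3 takes a larger share in both cKO libraries than in both WT libraries, as does Ldha, while Hk1 takes most of the hexokinase output in all 4.

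Of 98 further genes of glucose metabolism and its regulation, grouped by role, 66 reached 1 CPM on average. DESeq2 called 6 of them, or 9.09%, against 3.71% of all genes: 2 were increased and 4 were decreased. The edgeR test and limma voom called 0 of the 66, and each of the 3 tools gave an unadjusted p-value under 0.05 for 17, against 13.5% of all genes with DESeq2, 15.6% with edgeR and 15.8% with limma voom. Values were lower in cKO for 46 of the 66, or 69.7%, against 49.8% of all genes, and their median was -0.07, against 0.00. Calls were lost with 1 library left out: without WT replicate 1 DESeq2 called 2 of the 66 (Ddit4 and Ldhb), without WT replicate 2 it called 2 (Ddit4 and Myc), and without either cKO replicate it called 0, with an unadjusted p-value under 0.05 for 9 genes without cKO replicate 1 and for 8 without cKO replicate 2.

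Of the 21 remaining glycolytic enzymes listed, 11 passed the CPM limit, 10 of these had values below 0, and 1, Ldhb, was called. Gapdh, which encodes the enzyme that yields NADH, had the highest level per kb of the list, 24.8 CPM per kb, and was measured at 104 and 135 CPM in WT and 112 and 106 CPM in cKO. Its genotypes overlapped, with a log2 fold change of -0.14 (SE 0.118).

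Of the transport genes, 5 of 15 passed the CPM limit. Slc16a1, which encodes the lactate and pyruvate transporter MCT1, was measured at 79.6 and 80.6 CPM in WT and at 94.9 and 104 CPM in cKO. It was increased by 24.1% (0.31 on the log2 scale, SE 0.0961, adjusted p = 0.0327 with DESeq2), opposite in sign to the other 4 genes of its list. Bsg, the partner that brings MCT1 to the membrane, had a log2 fold change of -0.07 (SE 0.12).

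Among 11 regulators of glycolytic flux with a sufficient level, 2 were decreased. Txnip, a brake on glucose uptake whose transcription is known to follow glucose, was measured at 179.6 and 186 CPM in WT and at 149 and 150.3 CPM in cKO (-0.29 on the log2 scale, SE 0.0804, adjusted p = 0.0113 with DESeq2). Pdk2, which encodes an inhibitory kinase of pyruvate dehydrogenase, was measured at 27.4 and 23.8 CPM in WT and at 17.9 and 17.5 CPM in cKO (-0.53 on the log2 scale, SE 0.151, adjusted p = 0.015 with DESeq2). For both genes the cKO libraries were close together and below WT. Pfkfb3, which makes an activator of phosphofructokinase, had a log2 fold change of -0.12 (SE 0.0787), and Pdk1, another kinase of pyruvate dehydrogenase, one of -0.07 (SE 0.117). Of the 7 genes for pyruvate entry into mitochondria, 0 were called by DESeq2, edgeR or voom and 0 had an unadjusted DESeq2 p-value under 0.05. Their median was -0.03, with Pdhb at -0.12, Pdha1 at 0.04 and Mpc1 at 0.00.

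Of 12 transcription regulators, 1 was called. Myc, a transcription factor that can activate glycolytic genes, was measured at 6.63 and 9.51 CPM in WT and at 14.8 and 13.6 CPM in cKO. Both cKO libraries were higher, and Myc was increased by 75.8% (0.81 on the log2 scale, SE 0.223, adjusted p = 0.0103 with DESeq2). WT replicate 1, the library lowest in cycling cell genes, was also the lowest for Myc, and without it the log2 fold change was 0.57 and the gene was no longer called. Max, the partner of MYC, had a log2 fold change of -0.06 (SE 0.079). The oxygen sensing hydroxylase genes Egln2 and Hif1an had log2 fold changes of -0.14 (SE 0.0954) and -0.12 (SE 0.0885).

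**Figure D5:**
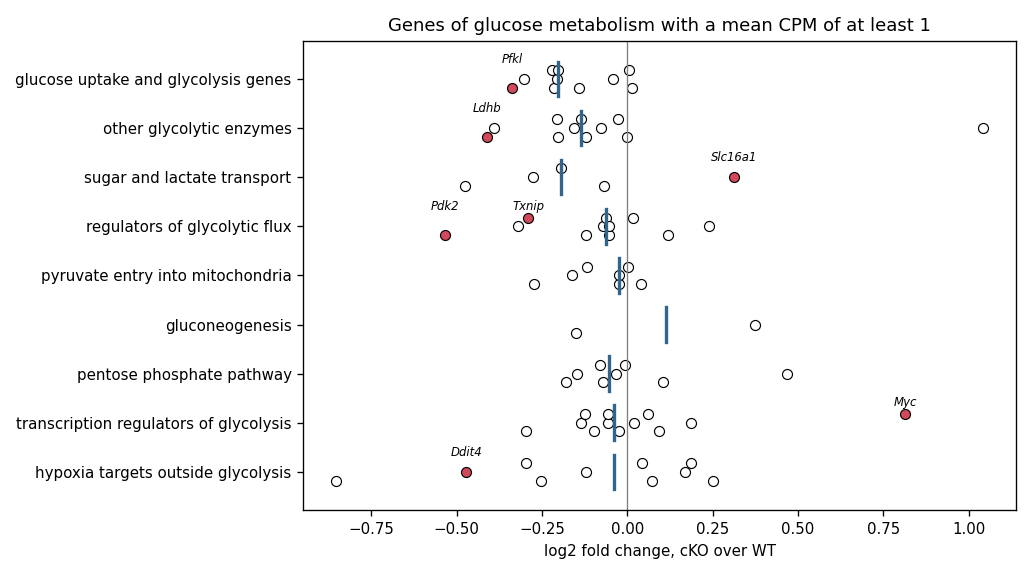
The log2 fold change of cKO over WT (horizontal axis) is drawn for every gene that reached 1 CPM on average, in rows by list, with blue bars at the list medians and filled, named points for genes called by DESeq2. Called genes lie on both sides of 0, with Myc and Slc16a1 to the right and Pfkl, Ldhb, Txnip, Pdk2 and Ddit4 to the left.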

How the data were processed

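Per the methods, the authors filtered reads with fastp 0.13.1, aligned them to GRCm38 with STAR 2.7.9a, marked duplicates and did not scale by the yeast spike-in. The processing notes also name featureCounts 1.6.1. The deposited values are expected counts, that is, fragments per gene with shared fragments split: 8.61% were fractional, but none of the 40 values of the 10 genes. The deposited length, another column, equalled the union of transcript intervals for all 24984 genes, which include introns. The methods name the STAR output as the source of the counts, so that whether introns were counted is not settled. Libraries were strand-specific per the methods. The strand setting of the counting and duplicate removal were not stated, and without molecular identifiers fragments are not independent molecules. Intervals cover the fitted error only.

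Counts were rounded. CPM used library totals (42626473, 48690591, 38429786 and 39760312 fragments in WT 1, WT 2, cKO 1 and cKO 2). Replicates differed beyond counting noise (chi-square per degree of freedom 40.7 in WT and 30.7 in cKO). Following the methods, genotypes were compared with the DESeq2 Wald test (independent filtering at 0.1) without covariates, with p-values adjusted over all genes. Alternatives were edgeR with filterByExpr, limma voom, other factors and filters, a replicate block, and leaving out each library, where the lone library is assumed to vary like the others. Procedures were tested on simulated data. Fits were run in R 4.3.3 (limma 3.58.1, edgeR 4.0.16 and DESeq2 1.42.0), and tables and plots were made in Python 3.11.15 (numpy 2.4.6, scipy 1.17.1, matplotlib 3.10.9 and pandas 2.3.3).

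The 10 genes and the lists were chosen with earlier results of these data known. Named were Tox4, the 10 genes, each called pathway gene, the 3 genes of each list with the highest CPM per kb, and family relatives with a mean CPM of at least 1. Eno2, G6pc3 and other named genes without a value in the text were not called. Values of some marker genes are not reported here.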

Additional observations from a re-analysis of the deposited data

How the results depend on the processing

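Over the 10 genes the median change stayed below 0 in all 14 alternatives, between -0.21 and -0.20 with other tests, factors, filters or the replicate block and between -0.23 and -0.12 with 1 library left out. The call of Pfkl did not hold as well: 1 gene was called with TMM factors, total count factors, 1 CPM required in all libraries, without the ribosomal RNA gene Rn45s, and with edgeR without a filter on low counts (an alternative chosen after seeing the data), and 0 with edgeR, limma voom, no independent filtering (adjusted p-value 0.0737), a fold change of at least 1.5, or any 1 library left out. Of the 66 pathway genes, 6 were called by DESeq2, 0 with edgeR or limma voom, 1 at a fold change of at least 1.5 (Myc), 0 to 2 with 1 library left out, and 5 to 9 in the other alternatives without a block. The Tox4 log2 fold change was -0.31 throughout and -0.34 to -0.28 with 1 library left out, but its adjusted p-value was 0.153 with edgeR (-0.31), 0.143 with limma voom (-0.31), 0.0511 with total count factors (-0.31), 0.0821 without independent filtering (-0.31) and 0.196 to 0.792 with 1 library left out. Among the 10 genes, signs reversed with 1 library left out for Hk1 (without cKO replicate 2, 0.0702, range -0.16 to 0.0702), Hk2 (-0.18 without WT replicate 1 and -0.02 without cKO replicate 2, range -0.18 to 0.23) and Ldha (-0.09 without WT replicate 1 and -0.11 without cKO replicate 1, range -0.11 to 0.12). Over all genes, the calls numbered 431 with DESeq2, 58 with edgeR, 61 with limma voom, 838 with edgeR without a filter, 361 without independent filtering, 184 without WT replicate 1, 446 without WT replicate 2, 126 without cKO replicate 1 and 89 without cKO replicate 2. The order of levels kept 2 of 10 ranks per kb of merged exons, and with this length, chosen for the family shares after seeing the data, Ldhb took a larger share than Ldha and Pfkp than Pfkl. The causes of these differences were not tested. The median SE over all genes was 0.148, and Slc2a3 and Hk2, with the fewest fragments, had the widest intervals.

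Over genes, the deviations of same-numbered libraries correlated at -0.03, so the numbers were not taken to pair the libraries, although the share of Rn45s followed them (2.71% and 2.44% in replicate 1, and 4.30% and 4.05% in replicate 2, of WT and cKO). With the replicate block, DESeq2 called 193 genes, 0 of the 10 genes, 1 of the pathway genes (Ddit4) and not Tox4 (-0.31, adjusted p-value 0.361), and edgeR called 28 genes, 0 of the 10 genes, 0 of the pathway genes and not Tox4 (-0.31, adjusted p-value 0.232).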

Other observations

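The neighbouring pathways described here are among the lists of further genes counted above. Ddit4, a hypoxia and stress induced inhibitor of mTORC1 signalling, was measured at 75.3 and 74.4 CPM in WT and at 53.8 and 54.3 CPM in cKO. Replicates of each genotype were close to each other, and output of Ddit4 was decreased by 27.9% (-0.47 on the log2 scale, SE 0.0989, adjusted p = 0.000192 with DESeq2 and 0.0557 with edgeR). The 10 measured hypoxia targets outside glycolysis did not share a direction: 5 were below 0 and 5 above, with a median of -0.04, and the highly transcribed Bnip3l, which encodes a mitophagy receptor, and Kdm3a, which encodes a histone demethylase, had log2 fold changes of -0.12 (SE 0.0858) and 0.07 (SE 0.0786).

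Of the 8 pentose phosphate pathway genes, 0 were called by DESeq2, by limma voom or by edgeR with its filter on low counts, and 1, Pgls, had an unadjusted DESeq2 p-value under 0.05. Pgls, which encodes 6-phosphogluconolactonase, was measured at 15.3 and 19.0 CPM in WT and at 22.3 and 25.2 CPM in cKO (0.47 on the log2 scale, SE 0.167, adjusted p = 0.095 with DESeq2), and edgeR without that filter called it. H6pd and Taldo1, enzymes of the same pathway, had log2 fold changes of 0.10 (SE 0.0883) and -0.07 (SE 0.133). Of 8 gluconeogenesis genes, 2 reached 1 CPM on average. Pcx, which encodes pyruvate carboxylase, was at 11.1 and 10.5 CPM in WT and at 14.03 and 13.9 CPM in cKO (0.37 on the log2 scale, SE 0.184, adjusted p = 0.324 with DESeq2), and Pck2, the mitochondrial PEP carboxykinase gene, had a log2 fold change of -0.15 (SE 0.333). Genes on the other strand overlap Pcx (Lrfn4), Pfkp (Pitrm1), Pfkm (Senp1), Pdha1 (Map3k15), Mpc1 (4930506C21Rik), Txnip (Gm15441) and Bsg (Bc1), and Mir5098 overlaps Pdk1 on the same strand. Bc1 held 13516 to 17827.5 fragments per library and Mir5098 12908.5 to 16513 fragments, over intervals that lie on more than 1 chromosome. The libraries were strand-specific per the methods, but the strand setting of the counting was not stated.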
